A study of Mus musculus with 12 samples.

Results

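Gene expression in the brains of mice labelled PBS was compared with that in mice labelled Control, 3 libraries against 3, which are 6 of the 12 libraries of the series. The 6 were chosen by the treatment label alone. All 12 mice were labelled with the 5xFAD genotype, a model of amyloid deposition in which human transgenes with mutations of familial Alzheimer's disease, APP among them, are driven by the neuronal Thy1 promoter, so by its label the Control group is one of amyloid mice and not of wild type mice. The other 6 libraries came from mice given ShK-223, a peptide blocker of the potassium channel Kv1.3, or PAP-1, a small-molecule blocker of the same channel, with 3 libraries each. PBS is phosphate-buffered saline, the usual vehicle of injected agents. The labels give the strain as not specified, and the age of the mice, the route and number of injections, and what the Control mice received are left out of the sources used here. The comparison sets side by side the groups that received no channel blocker. Each library came from its own mouse, was made from total RNA of tissue labelled whole brain, and carried a batch letter whose meaning the labels do not state. Control 1, 2 and 3 were in batches B, C and CH, and PBS 1, 2 and 3 in batches C, CH and C.

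Bulk brain RNA mixes the transcripts of regions that express very different genes. Granule cells of the cerebellum express Gabra6, a GABA receptor subunit, and Purkinje cells have their own set of transcripts. Projection neurons of the striatum express the adenosine receptor gene Adora2a, and neurons of the cortex and hippocampus express transcription factors such as Fezf2 and Neurod6. A level in such RNA therefore follows both how much of a region is in the tube and how much RNA its cells make. Fewer cells of a type and less RNA per cell cannot be told apart in bulk samples.

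The 6 libraries held 14364013 (PBS 2) to 17872294 (Control 3) counts over 21643 gene rows, and their RNA integrity numbers lay between 8.0 and 8.6. Levels are given in CPM, a gene's share of the counts of a library scaled to a fixed total, on library sizes adjusted by the TMM method. The defining markers of cerebellum went against the tissue label in 2 libraries. Control 1 held 1.23 CPM of Gabra6 and Control 3 held 0.112 CPM, against 332 CPM for Control 2 and 384, 452 and 409 CPM for PBS 1, 2 and 3. The 18 granule cell genes summed to 727 CPM for Control 1, 761 CPM for Control 3, 6252 CPM for Control 2 and between 6701 (PBS 3) and 7590 CPM (PBS 2) in the PBS libraries. The striatal marker Adora2a ran the other way, with 104 CPM for Control 1, 91.1 CPM for Control 3, 1.34 CPM for Control 2 and 13.4, 1.45 and 0.984 CPM for the PBS libraries. On the first principal component of the 6 libraries, which held 76.9% of the variance, Control 2 lay at 23.6 beside PBS 1 at 24.4, and Control 1 and 3 lay at -80.4 and -78.9. The correlation of log2 CPM over genes was 0.987 between Control 2 and PBS 1, and 0.930 between Control 2 and Control 1. Control 2 thus stood with the PBS libraries in its regional markers, and each result below is read with its values shown and, where it matters, left out.

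**Figure D1:**
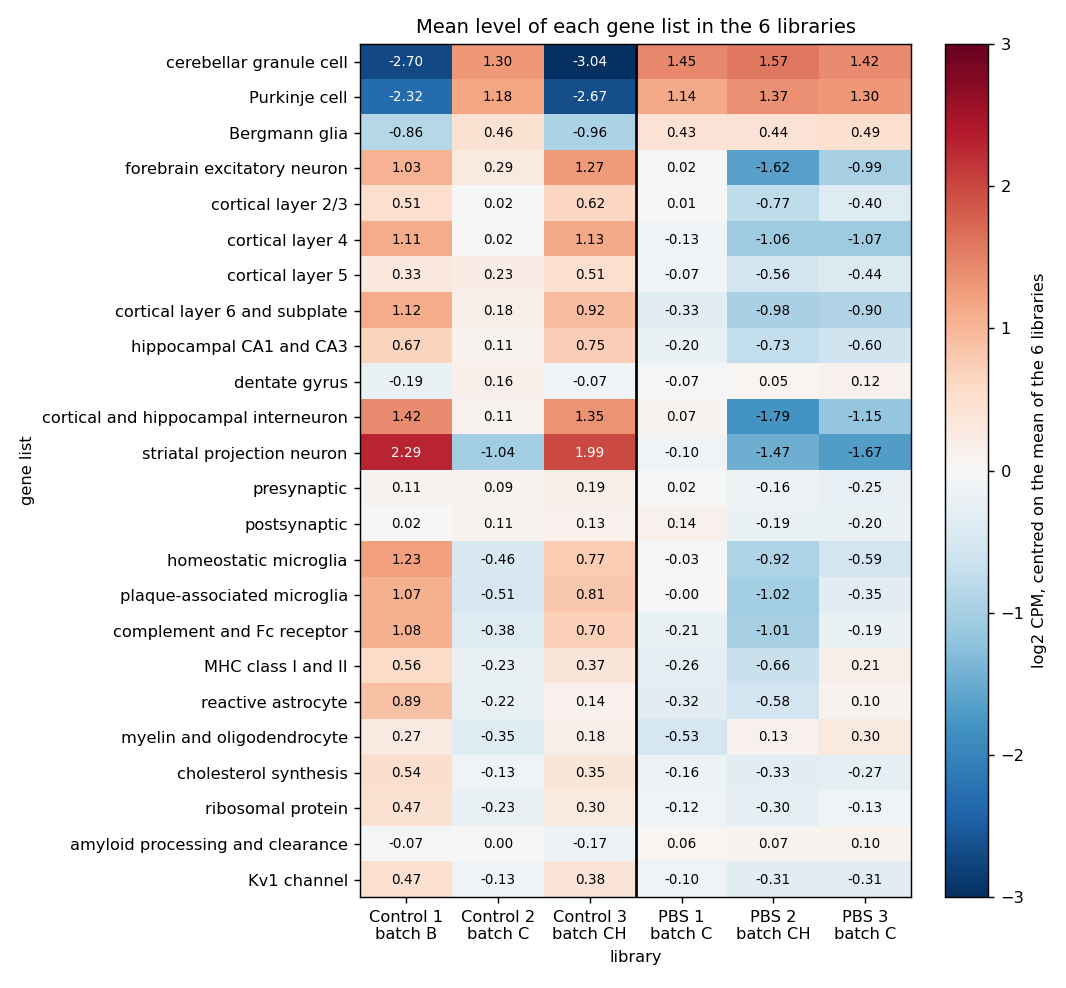
Mean log2 CPM of 24 gene lists (rows) in the 6 libraries (columns, with the batch letter), each list centred on its own mean over the 6 libraries; red is above and blue below that mean, and the vertical line parts Control from PBS. Control 2 has the colours of the PBS libraries for cerebellar and striatal lists (1.3 and -1.04) and lies between the groups for the cortical layer lists.

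Of 15061 genes tested, 694 (4.61%) were lower and 62 (0.412%) were higher in PBS than in Control, 756 in all (5.02%), by edgeR's quasi-likelihood test with Benjamini-Hochberg adjusted p below 0.05. Of the 47 gene lists examined, those of cortical layer 4 (4 of 10 genes), forebrain excitatory neurons (6 of 15) and cortical and hippocampal interneurons (6 of 15) had the largest shares of lower genes. The layer 4 list was added after values of its genes had been seen. It shares Cux2 and Rorb with the forebrain excitatory list. Among the lower genes were the layer 6 receptor gene Ntsr1, the cortical transcription factors Fezf2 and Mef2c, the interneuron peptides Sst and Vip, and the glutamate receptor genes Grin2b and Grm5. Among the genes called, those that rose were few, and their changes were smaller. The median log2 fold change was 0.61 over the 62 higher genes and -1.26 over the 694 lower genes. Without Control 2, 3476 genes were called higher and 3245 lower, of 15299 tested. At least a 2-fold change was seen in 450 of the lower and 8 of the higher genes, and at least a 4-fold change in 137 and 3. The median of all genes tested was 0.01.

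The number of calls rested on which libraries entered the fit. With edgeR it fell to 0 when Control 1, Control 3 or PBS 3 was left out and to 1 without PBS 2, while 2666, 2693, 3750 and 3256 genes kept an unadjusted p below 0.05 in those fits. Without Control 2, 6721 genes were called, 3476 higher (22.7% of 15299 tested) and 3245 lower (21.2%), and all 756 genes were among them. The 3 PBS libraries lay above the 3 Control libraries without overlap in 2032 genes (13.5%) and below them in 2376 (15.8%). The smallest p that an exact permutation test of 3 against 3 libraries can give is 0.1, so no single gene is given one.

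**Figure D2:**
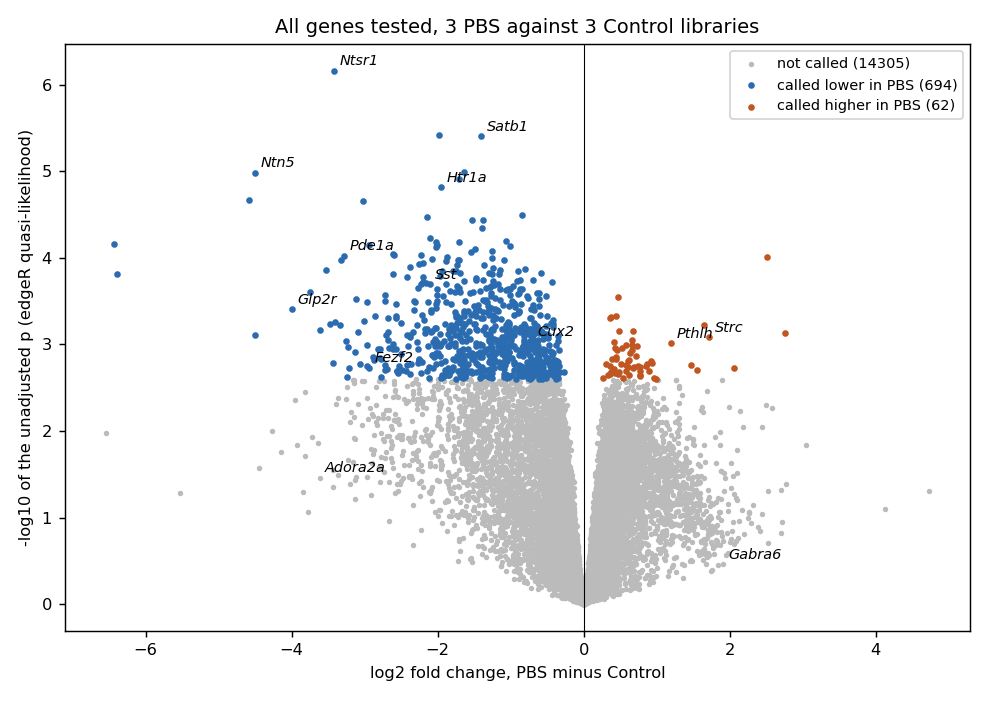
Log2 fold change, PBS minus Control (x axis), against -log10 of the unadjusted p of edgeR's quasi-likelihood test (y axis) for the 15061 genes tested; each point is a gene, blue for the 694 called lower in PBS and orange for the 62 called higher. Ntsr1 has the smallest p, and Gabra6 and Adora2a have large fold changes but are not called.

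For each gene the level of Control 2 was placed on a scale that runs from 0 at the mean log2 CPM of Control 1 and 3 to 1 at the mean of the PBS libraries. Over the 6692 of these genes that were called without Control 2, its median position was 0.86, with quartiles at 0.67 and 0.99. By direction the median was 0.92 over the 3470 genes higher in PBS and 0.74 over the 3222 genes lower in PBS. Among genes called with all 6 libraries the median position was 0.55 for the lower and 0.53 for the higher genes, values that the call itself limits, since the call used Control 2. Control 2 was nearer to PBS in 436 of the 694 lower genes and in 35 of the 62 higher genes.

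**Figure D3:**
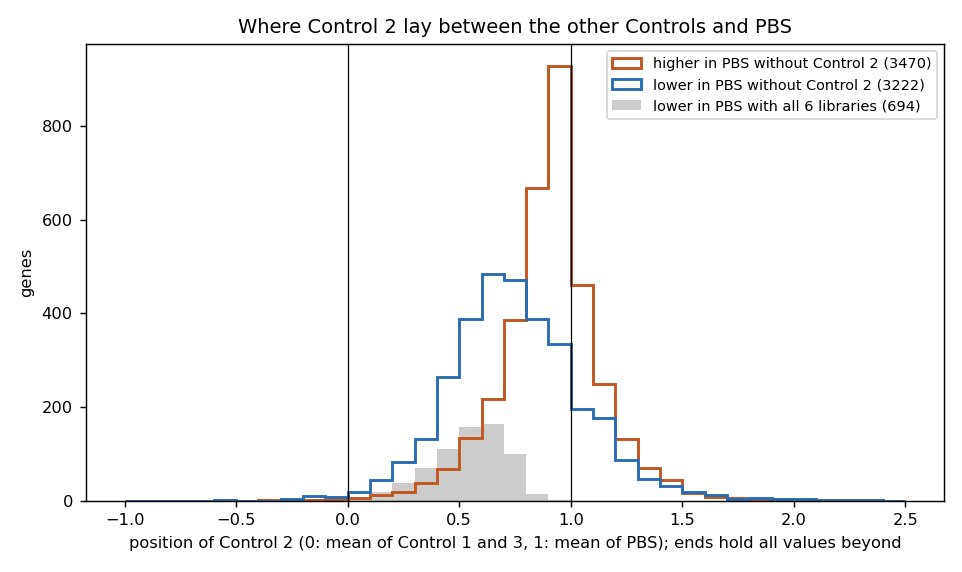
Number of genes (y axis) by the position of Control 2 between the mean of Control 1 and 3 (0) and the mean of PBS (1) (x axis, bins of 0.1, end bins holding all values beyond). The orange line holds the 3470 genes higher in PBS without Control 2 and peaks just below 1, the blue line the 3222 lower genes, and the grey area the 694 genes lower with all 6 libraries.

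Genes that parted PBS from all 3 Control libraries, Control 2 included, were Ntsr1, Ntn5 and Glp2r, among others. Ntsr1 encodes a neurotensin receptor and marks corticothalamic neurons of layer 6 in the mouse, Ntn5 encodes a member of the netrin family, and Glp2r encodes the receptor of glucagon-like peptide 2. In the annotation (GENCODE vM21, GRCm38) Ntsr1 lies at chr2:180499976-180544980 on the plus strand, Ntn5 at chr7:45684022-45694556 on the plus strand, and Glp2r at chr11:67661502-67771153 on the minus strand. Their promoters are shown because these 3 genes fell together and were all lowest in PBS 2. That trait is not particular to them, since Pde1a, Rxfp1 and Fezf2, among others, were also lowest in PBS 2. Ntn5 and Glp2r had only 13 and 17 counts over the PBS libraries. The 250 bases before the annotated start, 5′ to 3′ on the gene's own strand, were taken from RefSeq (GRCm38.p6) at chr2:180499726-180499975, chr7:45683772-45684021 and chr11:67771154-67771403. Capitals mark matches to the motifs searched.
Ntsr1: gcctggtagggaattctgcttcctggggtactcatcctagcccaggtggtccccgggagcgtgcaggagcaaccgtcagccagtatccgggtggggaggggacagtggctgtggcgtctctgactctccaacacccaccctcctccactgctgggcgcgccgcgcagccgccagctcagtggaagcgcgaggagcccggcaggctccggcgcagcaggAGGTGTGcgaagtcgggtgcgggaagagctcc
Ntn5: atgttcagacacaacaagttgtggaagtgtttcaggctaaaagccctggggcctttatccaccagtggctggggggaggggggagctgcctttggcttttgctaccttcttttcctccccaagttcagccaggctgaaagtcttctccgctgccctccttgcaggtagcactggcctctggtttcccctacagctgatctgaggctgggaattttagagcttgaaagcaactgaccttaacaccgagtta
Glp2r: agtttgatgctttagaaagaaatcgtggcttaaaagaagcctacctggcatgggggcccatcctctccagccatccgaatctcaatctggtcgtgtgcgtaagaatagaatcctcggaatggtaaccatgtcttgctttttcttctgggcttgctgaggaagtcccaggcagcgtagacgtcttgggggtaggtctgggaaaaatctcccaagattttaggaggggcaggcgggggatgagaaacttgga
The motifs searched on both strands were TATAAA of the TATA box, CCAAT of the box of that name, CAGATG of NeuroD-type E-boxes and AGGTGTG of T-box factors, the last chosen after the Ntsr1 sequence had been read. The only match was the T-box core of Ntsr1, 32 to 26 bases before the start, which 5.1% of 32851 promoters of the same length hold on either strand. The other motifs are found in 12.4%, 33.8% and 14.4% of promoters. The 3 promoters differed in base composition: G and C made up 68.4% of that of Ntsr1, 52.8% of that of Ntn5 and 50.4% of that of Glp2r, against a median of 52.4% over all promoters.

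Ntsr1 stood at 10.5, 9.13 and 10.1 CPM for Control 1, 2 and 3, against 1.29, 0.413 and 1.05 CPM for PBS 1, 2 and 3. All PBS libraries were low, and Control 2 lay close to Control 1 and 3 (mean 9.92 ± 0.72 CPM in Control against 0.915 ± 0.451 CPM in PBS, SD, n = 3 each). The log2 fold change was -3.41 (SE 0.33, adjusted p 0.0104 by edgeR), the smallest p of all genes, on 500 counts in Control and 44 in PBS. It kept its call in 3 of the 6 fits that left out 1 library and lay between -3.73 and -3.08 in all of them. In the mice given the channel blockers Ntsr1 stood at 10.3 ± 2.74 CPM with ShK-223 and 15.1 ± 1.76 CPM with PAP-1 (SD, n = 3 each). Those 6 libraries were poor in cerebellar transcript like Control 1 and 3, with Gabra6 at 58.4 CPM in PAP-1 1 and 0.056 to 0.518 CPM in the other 5, against 384 to 452 CPM in PBS. The part of this shift in the levels of the blocker groups given here was not tested.

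Ntn5 stood at 5.06, 6.51 and 7.51 CPM in the Control mice against at 0.184, 0.0689 and 0.553 CPM in PBS. It had one of the widest separations, with a log2 fold change of -4.50 (SE 0.57, adjusted p 0.0305 by edgeR) on 324 counts in Control and 13 in PBS. The gene Sec1, which encodes a fucosyltransferase-like protein, lies at chr7:45677686-45694402 on the minus strand and overlaps nearly all of Ntn5. Sec1 stood at 1.88, 1.98 and 2.69 CPM in the Control mice against 0.184, 0.138 and 0.307 CPM in PBS (log2 fold change -3.32, SE 0.55, adjusted p 0.0376 by edgeR). Whether the counting used strand is not stated in the sources used here, so reads of Ntn5 and Sec1 cannot be told apart and the pair may be 1 measurement.

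Glp2r stood at 2.66, 10.5 and 4.20 CPM in the Control mice against 0.490, 0.138 and 0.430 CPM in PBS. Control 2 had the highest level of the 6, and the log2 fold change was -3.99 (SE 0.78, adjusted p 0.0383 by edgeR). Mdfic2 had a wide gap as well, at 4.41, 3.31 and 5.10 CPM in the Control mice against 0.245, 0.344 and 0.307 CPM in PBS, but missed the threshold (log2 fold change -3.81, SE 1.02, adjusted p 0.0545 by edgeR). Bglap3, one of the osteocalcin genes of the mouse, was near the lower limit of measurement, with 70 counts in the Control libraries and 8 in the PBS libraries (log2 fold change -2.97, SE 0.72, adjusted p 0.0455 by edgeR). Its near-identical copies could share reads with it.

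Better expressed genes also had every PBS library below every Control library. Htr1a, the inhibitory serotonin 1A receptor, stood at 12.1, 12.4 and 17.1 CPM in the Control mice against 3.12, 3.72 and 3.94 CPM in PBS, a log2 fold change of -1.95 (SE 0.26, adjusted p 0.0331 by edgeR). Satb1, a chromatin organiser needed for the maturation of cortical interneurons, stood at 90.7, 72.7 and 107 CPM in the Control mice against 39.5, 31.0 and 31.4 CPM in PBS. Its log2 fold change was -1.41 (SE 0.16, adjusted p 0.0197 by edgeR). Col6a2, a chain of collagen VI, stood at 51.5, 33.0 and 52.1 CPM in the Control mice against 12.8, 8.68 and 13.1 CPM in PBS (log2 fold change -1.98, SE 0.23, adjusted p 0.0197 by edgeR). In each of the 3 genes the lowest Control library was above the highest PBS library by more than the range of the PBS libraries. With ShK-223 and PAP-1 Htr1a stood at 19.0 ± 6.52 and 24.1 ± 4.16 CPM, Satb1 at 135 ± 5.32 and 116 ± 19.2 CPM, and Col6a2 at 41.0 ± 2.09 and 42.0 ± 9.62 CPM (SD, n = 3 each), in libraries that differ from PBS in cerebellar transcript as described for Ntsr1. On the log2 CPM scale a gap of at least 1 between the groups was found in 61 lower and 5 higher genes.

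**Figure D4:**
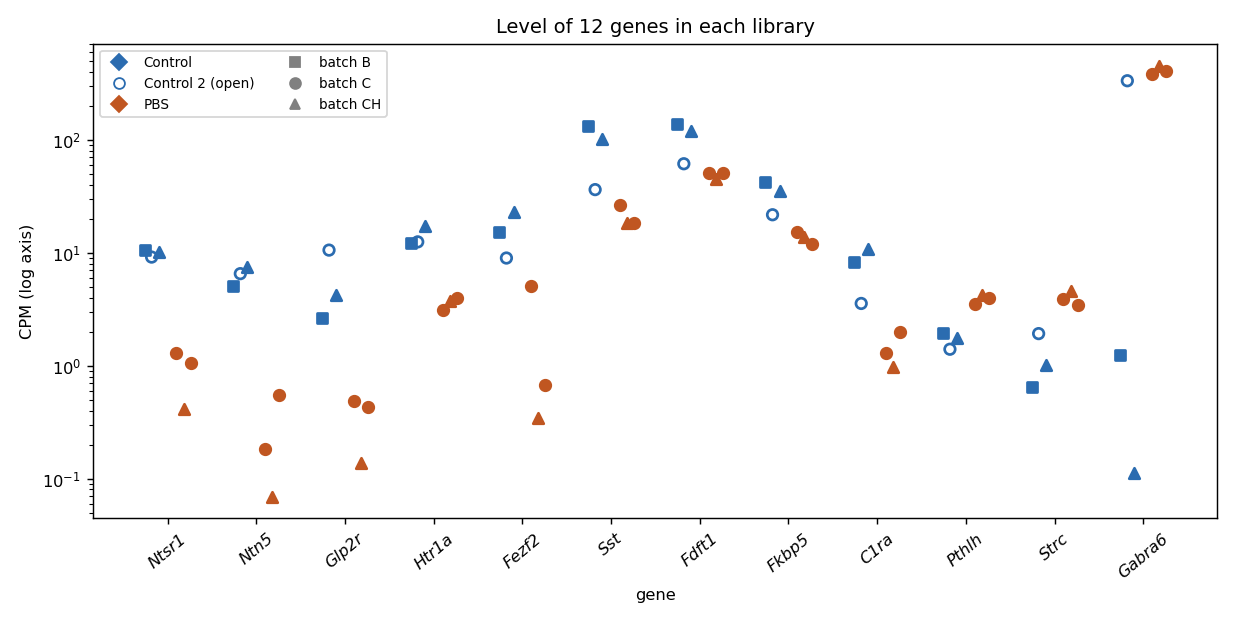
Level of 12 genes in each library, in CPM on a log axis; blue is Control (Control 2 open), orange is PBS, and the symbol gives the batch (square B, circle C, triangle CH). For Ntsr1, Ntn5, Glp2r and Htr1a the open circle lies with or above the other Controls, for Fezf2, Sst, Fdft1, Fkbp5 and C1ra it lies between the groups, and for Gabra6 it lies with PBS.

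Among the lower genes with the largest fold changes, others had Control 2 between the groups. Pde1a, a calcium-dependent phosphodiesterase, stood at 249, 109 and 237 CPM in the Control mice against 34.8, 6.20 and 20.1 CPM in PBS (log2 fold change -3.28, adjusted p 0.0376 by edgeR). Rxfp1, the relaxin receptor, stood at 35, 13.8 and 43.0 CPM in the Control mice against 5.51, 1.03 and 1.35 CPM in PBS (log2 fold change -3.52). Cntnap3, a contactin-associated cell adhesion gene, Ano2, a calcium-activated chloride channel, Wnt2, a secreted ligand, and Krt80, a keratin, had log2 fold changes of -3.48, -3.43, -3.41 and -3.33. In these 4 genes Control 2 was at 2.79, 1.51, 1.34 and 1.05 CPM, nearer to PBS than to the other Controls. The adjusted p of these genes, by edgeR, lay between 0.0376 (Rxfp1) and 0.0451 (Ano2).

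Several genes of forebrain neurons fell in PBS. Of 15 forebrain excitatory neuron genes tested, 6 fell, none rose and 9 were not called, with a median log2 fold change of -1.78. The share called lower over all genes tested was 4.61%. In this list 3 genes had a log2 fold change above 0. Its summed level overlapped between the groups, at 3521 (Control 2) to 7422 CPM in the Control mice against 1712 to 3663 CPM in PBS. Fezf2, which specifies corticospinal neurons, stood at 15.1, 8.95 and 22.9 CPM in the Control mice against 5.02, 0.344 and 0.676 CPM in PBS (log2 fold change -2.94, SE 0.71, adjusted p 0.0457 by edgeR). Neurod6, a factor of differentiating pyramidal neurons, fell by 1.73 on the log2 scale. Nrgn, a calmodulin-binding protein of dendritic spines, fell by 2.78, Mef2c, an activity-dependent factor, fell by 2.17, and Cux2, a factor of upper-layer neurons, fell by 0.71. Cux2 was the member with Control 2 fully among the Controls, at 153, 163 and 179 CPM in the Control mice against 117, 92.6 and 92.2 CPM in PBS. PBS 1 had the highest level of the 3 PBS libraries in each gene of this list named here.

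Inhibitory neurons of the cortex and hippocampus gave the same count, with 6 of 15 interneuron genes lower, none higher and a median log2 fold change of -2.43. Over all genes tested 4.61% were called lower. Of the 15 genes 3 had a log2 fold change above 0. The summed level of the list did not separate the groups. It was 648 to 792 CPM in the Control mice and 711 to 766 CPM in PBS. Sst, the peptide somatostatin, stood at 133, 36.1 and 102 CPM in the Control mice against 26.2, 18.2 and 18.4 CPM in PBS (log2 fold change -2.11, SE 0.38, adjusted p 0.0376 by edgeR). Lhx6, the factor that specifies interneurons of the medial ganglionic eminence, fell by 3.23, and the peptide gene Vip by 2.7. Tac2, a tachykinin, fell by 2.68, the serotonin receptor Htr3a by 2.43 and the peptide cholecystokinin, Cck, by 1.62. For Sst and Cck Control 2 lay at 0.68 and 0.67 of the way to PBS, and for Vip at 0.32.

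The cortical layers and hippocampal fields were read from lists that were added after values of these genes had been seen. Calls were found in every layer, without a call in the upward direction. Over all genes tested 4.61% were called lower and 0.412% higher. The counts were 3 of 13 for layer 2/3 (Cux2, Ccdc80 and Rasgrf2), 4 of 10 for layer 4 (Rspo1, Cux2, Rasal1 and Cnih3), 2 of 15 for layer 5 (Fezf2 and Qrfpr) and 3 of 19 for layer 6 and subplate (Ntsr1, Hs3st4 and Cplx3). Median log2 fold changes were -0.90, -1.76, -0.44 and -1.19. Within batch C these medians were -0.04, -0.65, -0.21 and -0.44. Genes with a log2 fold change above 0 numbered 3 of 13, 1 of 10, 4 of 15 and 4 of 19. The summed levels of the layer 2/3 and layer 5 genes overlapped between the groups. Those of layer 4 and of layer 6 and subplate did not. Some members are also in the Purkinje cell list, Calb1 of layer 2/3, Pcp4 of layer 5 and Foxp2 of layer 6. Etv1 of layer 5 is also in the granule cell list. The part of cerebellar transcript in these sums was not tested. Rspo1, a Wnt pathway agonist, stood at 12.1, 3.84 and 15.3 CPM in the Control mice against 1.65, 0.895 and 1.11 CPM in PBS (log2 fold change -3.08, adjusted p 0.0383 by edgeR). Cplx3, a complexin of subplate neurons, stood at 16.7, 10.4 and 24.6 CPM in the Control mice against 3.31, 2.00 and 1.05 CPM in PBS (log2 fold change -3.02, adjusted p 0.0367 by edgeR).

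In the hippocampus calls were found for the pyramidal fields and for the dentate gyrus. Of 17 genes of CA1 and CA3, 4 fell (Pou3f1, Mpped1 and Htr1a among them), with a median of -1.07. Of 15 dentate gyrus genes 3 fell (C1ql3, Trpc6 and Plekha2) and 6 had a log2 fold change above 0, with a median of -0.56. The summed dentate gyrus level was 296 to 551 CPM in the Control mice against 562 to 611 CPM in PBS. For CA1 and CA3 it was 1241 to 1360 CPM in the Control mice against 900 to 983 CPM in PBS. A difference between the lists was not tested, nor was the part of cerebellar transcript in their sums. A broader list of 15 hippocampal genes had 1 call, the cation channel gene Trpc6 (log2 fold change -1.92), and a median of -0.39, and its summed level did not separate the groups, with 412 to 639 CPM in the Control mice against 511 to 539 CPM in PBS. Of 16 genes of amygdala and claustrum 3 fell (Gng2, Neurod6 and Dkk3), with a median of -0.62 and 5 genes above 0. Of 14 olfactory bulb genes 1 fell (Meis2, a homeobox factor also expressed in striatum), with a median of 0.12 and 8 genes above 0. Over all genes tested 4.61% were called lower.

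Some synaptic genes fell in PBS. Of 25 presynaptic genes 4 fell and none rose, with a median log2 fold change of -0.19 and 10 genes above 0. Over all genes tested 4.61% were called lower. Syt1, the calcium sensor of vesicle release, stood at 1431, 942 and 1568 CPM in the Control mice against 789, 513 and 505 CPM in PBS (log2 fold change -1.12, SE 0.24, adjusted p 0.0391 by edgeR). Syn1, a vesicle phosphoprotein, fell by 0.86 and Sv2b, a vesicle glycoprotein, by 0.77, and Cplx3 is given above. Of 26 postsynaptic genes 3 fell and none rose, with a median of -0.14 and 11 genes above 0. The 3 were the NMDA receptor subunit Grin2b (by 2.19), the metabotropic receptor Grm5 (by 2.02) and the adhesion molecule Nlgn1 (by 0.63). Without Control 2, 4 presynaptic genes were higher and 9 lower, and 6 postsynaptic genes were higher and 10 lower. Grin2b stood at 496, 186 and 513 CPM in the Control mice against 150, 47.4 and 64.4 CPM in PBS, with Control 2 nearer to PBS 1 than to the other Controls. Snap25, a fusion protein of all synapses, was at 2404 to 2749 CPM in the Control mice against 2443 to 2578 CPM in PBS and was not called (log2 fold change -0.02, SE 0.13, adjusted p 0.933 by edgeR).

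Striatal and cerebellar genes had large fold changes and no call. The 15 striatal projection neuron genes had a median log2 fold change of -2.26, none was above 0, and none separated the groups, because Control 2 (summed 588 CPM) lay in the range of the PBS libraries (506 to 850 CPM) and far under Control 1 and 3 (3630 and 2884 CPM). Adora2a itself had a log2 fold change of -3.62 (SE 1.49, adjusted p 0.123 by edgeR). The 18 granule cell genes had a median of 1.51, and 13 of them were above all Control libraries in all PBS libraries, against 13.5% of all genes, but none was called, and Gabra6 had a log2 fold change of 1.90 with an SE of 1.93 (adjusted p 0.500 by edgeR). The 17 Purkinje cell genes had a median of 1.4 and no call. Without Control 2, 14 of 15 striatal genes were lower, 17 of 18 granule cell genes higher and 15 of 17 Purkinje cell genes higher in PBS, with medians of -2.72, 3.67 and 3.30. Within batch C, where Control 2 is the Control library, the medians were 0.38, 0.17 and 0.10.

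Few genes were called higher in PBS with all 6 libraries, and none of them belonged to any of the 47 lists. Strc, which encodes the stereocilia protein stereocilin, stood at 0.649, 1.92 and 1.01 CPM in the Control mice against 3.86, 4.55 and 3.44 CPM in PBS (log2 fold change 1.72, SE 0.37, adjusted p 0.0392 by edgeR). Kcnk12, a potassium channel of the tandem pore family, stood at 4.35, 13.8 and 4.71 CPM in the Control mice against 17.5, 24.7 and 25.1 CPM in PBS (log2 fold change 1.55, SE 0.38, adjusted p 0.0467 by edgeR). Pthlh, the parathyroid hormone-related peptide, was also called higher, with Control 2 lowest among the Controls, at 1.95, 1.39 and 1.74 CPM in the Control mice against 3.49, 4.20 and 3.94 CPM in PBS (log2 fold change 1.19, SE 0.26, adjusted p 0.0399 by edgeR). With the channel blockers Pthlh stood at 2.23 ± 0.30 CPM for ShK-223 and 2.32 ± 0.78 CPM for PAP-1 (SD, n = 3 each), and Strc at 1.35 ± 0.43 and 1.24 ± 0.09 CPM, again in libraries poor in cerebellar transcript.

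The other named genes that rose were Eva1c (log2 fold change 1.47), Spsb3, an adaptor of a ubiquitin ligase (0.99), Hebp2, a heme-binding protein (0.96), and Xkr6, a member of the Xk family (0.93). Mroh2a, Tmem204 and the endosomal adaptor Wdfy1 followed at 0.92, 0.90 and 0.87. Their adjusted p by edgeR lay between 0.0445 (Mroh2a) and just under 0.05 (Spsb3). A wide gap without a call was seen in Pappa, a protease of insulin-like growth factor binding proteins, at 0.973, 2.5 and 0.448 CPM in the Control mice against 6.00, 11.9 and 5.66 CPM in PBS (log2 fold change 2.58, SE 0.74, adjusted p 0.0625 by edgeR). The proteoglycan Sdc1, the TWEAK receptor Tnfrsf12a and Vwa7 also had every PBS library above every Control library, with log2 fold changes of 2.02, 1.22 and 2.08, and were not called.

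Microglial genes had medians below 0 and 1 call, a share under the 4.61% of all genes called lower. Of 30 plaque-associated microglia genes 1 fell (Timp2, a metalloproteinase inhibitor that other cells also express, by 1.41), with a median log2 fold change of -1.10, and of 18 homeostatic microglia genes none was called, with a median of -1.35. Trem2, the lipid-sensing receptor of plaque-associated microglia, stood at 98.5, 20.3 and 98.5 CPM in the Control mice against 40.4, 8.19 and 18.9 CPM in PBS (log2 fold change -1.68, SE 0.62, adjusted p 0.0982 by edgeR). Control 2 lay within the PBS range for Trem2 and likewise for Cst7, a cystatin, at 68.1, 9.01 and 65.5 CPM in the Control mice against 24.6, 4.55 and 7.07 CPM in PBS. Itgax, Tmem119 and P2ry12 had log2 fold changes of -1.50, -1.16 and -1.34 and were not called, with adjusted p of 0.161, 0.0606 and 0.0651 by edgeR. Without Control 2, 22 of 30 plaque-associated and 16 of 18 homeostatic genes were lower, and within batch C the medians were above 0, at 0.40 and 0.19. The striatal and cerebellar lists moved with these lists across the 6 libraries, and their part in the result was not tested.

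Complement and antigen presentation gave few calls. Of 18 complement and Fc receptor genes 2 fell, the C1 protease genes C1ra (log2 fold change -2.41) and C1s1 (-1.84), with a median over the list of -1.35. Of all genes tested 4.61% were called lower. Without Control 2, 14 of the 18 genes were lower, and within batch C the list median was above 0, at 0.29. C1ra stood at 8.24, 3.55 and 10.9 CPM in the Control mice against 1.29, 0.964 and 1.97 CPM in PBS (SE 0.43, adjusted p 0.0376 by edgeR), and near-identical copies of C1ra and C1s1 in the mouse genome could share their reads. Of 20 genes of MHC class I and II 1 fell (H2-DMa, a peptide-loading chaperone, by 1.4), a share near the 4.61% of all genes. None of 19 interferon response genes or 16 cytokine genes was called, and of the 20 lymphocyte and granulocyte markers 1 reached the filter on low counts and was not called. The astrocyte gene Gfap stood at 2562, 528 and 1288 CPM in the Control mice against 753, 415 and 890 CPM in PBS (log2 fold change -1.09, SE 0.54, adjusted p 0.179 by edgeR), and none of the 19 reactive astrocyte genes was called.

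Oligodendrocyte and vascular genes gave 1 call. Pdgfra, the receptor that marks oligodendrocyte precursors, fell by 0.80, and none of 18 myelin genes was called, with a median of 0.06. Mbp, myelin basic protein, stood at 2525, 1981 and 2714 CPM in the Control mice against 1853, 3203 and 3586 CPM in PBS, with overlapping groups. None of 17 endothelial and pericyte genes, 15 choroid plexus genes or 15 meningeal genes was called. The choroid plexus genes overlapped between the groups, with a summed level of 49.6 to 750 CPM in the Control mice against 62.2 to 1324 CPM in PBS.

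Genes of stress and activity were called 1 at a time, shares near the 4.61% of all genes that were called lower. Fkbp5, a glucocorticoid-induced co-chaperone, fell by 1.27 on the log2 scale, at 42.0, 21.6 and 35 CPM in the Control mice against 15.1, 13.7 and 12.0 CPM in PBS (SE 0.24, adjusted p 0.0376 by edgeR). It was the 1 call among 20 glucocorticoid response genes, whose median was -0.07. Sgk1, another target of glucocorticoids, stood at 63.4 to 79 CPM in the Control mice against 63.9 to 77.1 CPM in PBS and was not called (log2 fold change -0.07). Of 25 immediate early genes 1 fell (Ier5, by 1.47), with a median of -0.54. Fos stood at 7.20, 49.8 and 24.2 CPM in the Control mice against 21.4, 48.8 and 41.0 CPM in PBS (log2 fold change 0.45), and Arc had a log2 fold change of -1.69. Neither Fos nor Arc was called, with adjusted p of 0.714 and 0.0837 by edgeR. Of 17 clock genes 1 fell, Npas2, a CLOCK paralogue expressed in forebrain (by 2.05).

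The genes of sterol synthesis lay below 0 throughout. All 22 had a log2 fold change below 0, with a median of -0.53, and 3 fell, against 4.61% of all genes. Among the 3 were Fdft1, squalene synthase, which fell by 1.11, and Srebf2, the transcriptional activator of the pathway, which fell by 0.57. Fdft1 stood at 136, 61.1 and 118 CPM in the Control mice against 50.8, 45.1 and 50.3 CPM in PBS (SE 0.27, adjusted p 0.0455 by edgeR). Control 2 was the lowest Control, at 0.76 of the way to PBS. In 10 of the 22 genes the groups did not overlap, against 15.8% of all genes in that direction. Other lists had no gene above 0 either. The 39 ribosomal protein genes had a median of -0.40 and the 13 mitochondrially encoded genes one of -0.25, without a call. Within batch C the medians of the sterol, ribosomal and mitochondrial lists were -0.10, 0.11 and 0.04.

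Genes of Kv1 channels and of amyloid gave few calls. Kcna3, which encodes Kv1.3, stood at 3.24, 2.56 and 3.70 CPM in the Control mice against 2.45, 2.69 and 2.15 CPM in PBS (log2 fold change -0.38, SE 0.22, adjusted p 0.240 by edgeR). Of 9 genes of the Kv1 family 1 fell, Kcna4, which carries a fast inactivating current, by 2.21, at 40.2, 9.82 and 32.4 CPM in the Control mice against 8.82, 4.82 and 4.12 CPM in PBS. Kcna1 and Kcna2, the axonal subunits, had log2 fold changes of 0.52 and 0.41 and were not called. App stood at 1807, 1626 and 1897 CPM in the Control mice against 1442, 1596 and 1521 CPM in PBS (log2 fold change -0.23, SE 0.09, adjusted p 0.105 by edgeR), and whether reads of the human transgene were counted in it is not stated in the sources used here. None of 24 genes of amyloid processing and clearance was called, and Apoe had a log2 fold change of -0.38 (adjusted p 0.228 by edgeR). Thy1, whose promoter drives the transgenes, fell by 1.28 (1841, 866 and 2191 CPM in the Control mice, 725, 588 and 705 CPM in PBS; adjusted p 0.0467 by edgeR). Npy2r, the 1 call of the Bergmann glia list and a neuronal peptide receptor, fell by 2.62. Of the 10 Bergmann glia genes tested 9 had a log2 fold change above 0, and the list median was 0.93. The summed level of that list was 1351 to 2685 CPM in the Control mice against 2744 to 2852 CPM in PBS.

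**Figure D5:**
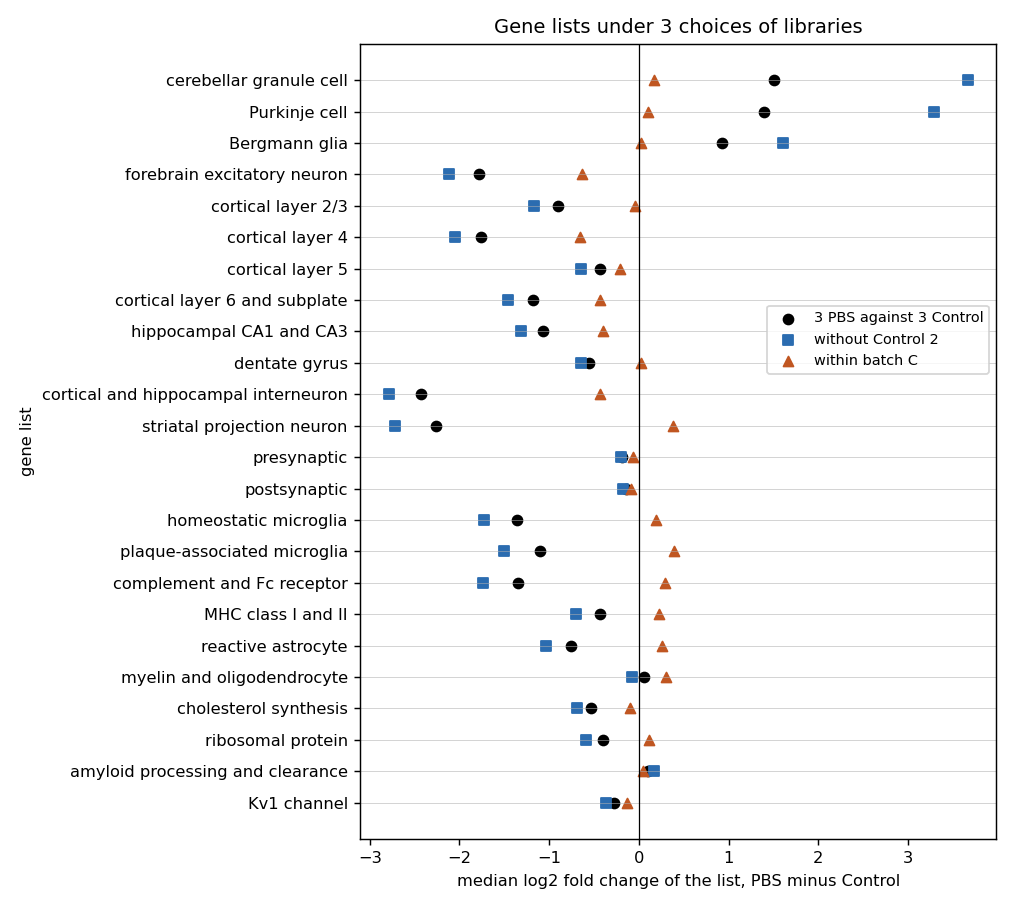
Median log2 fold change, PBS minus Control (x axis), of 24 gene lists (y axis) under 3 choices of libraries: all 6 (black circles), without Control 2 (blue squares) and PBS 1 and 3 against Control 2 within batch C (orange triangles). Forebrain excitatory neurons stay below 0 under the 3 choices (-1.78, -2.12 and -0.64), while striatal projection neurons are at 0.38 and homeostatic microglia at 0.19 within batch C.

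Batches C and CH hold both groups. In batch C, PBS 1 and 3 faced Control 2, and in batch CH, PBS 2 faced Control 3. The fit had a mean for each group and batch. Its spread came only from libraries that share both, PBS 1 and 3, ShK-223 1 and 3, and PAP-1 1 and 3. No Control library entered it, so the SE and p within a batch hold no spread between Control mice. Within batch C edgeR called 0 genes, and 230 had an unadjusted p below 0.05, 183 of them lower and 47 higher in PBS. All 756 genes called over the 6 libraries kept their direction there, which the choice of genes nearly fixes, since 714 of them had no overlap between the same libraries. Their median size was 0.46 on the log2 scale against 1.21 over the 6 libraries. Ntsr1 was at -2.96 (SE 0.30), Ntn5 at -4.12, Glp2r at -4.49, Htr1a at -1.82, Satb1 at -1.04, Col6a2 at -1.35 and Pthlh at 1.41 within batch C, without a call. Forebrain excitatory neuron genes had a median of -0.64 and interneuron genes of -0.44 there. Batch CH holds 1 library of each group, and cerebellar markers also parted them, so it gives values for these 2 libraries and no test of the groups. The forebrain and interneuron medians were -3.37 and -3.88, Ntsr1 was at -4.59 and Htr1a at -2.20 in that batch. The smallest p within batch C was that of Tcf7l2, a thalamic and oligodendrocyte transcription factor, at 32.5 CPM for Control 2 against 6.19 and 5.53 CPM for PBS 1 and 3 (log2 fold change -2.47, SE 0.21, adjusted p 0.492 by edgeR). The same gene was at 39.6 CPM in PBS 2 and 6.16 CPM in Control 3, so its direction was the opposite in batch CH, at 2.68.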

How the data were processed

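Total RNA of tissue labelled whole brain was sequenced as paired-end reads from 12 mice. Per the submitters' processing notes the reads were aligned to GRCm38 (mm10) with STAR 2.7.11a and analysed with DESeq2 1.40.2 in R 4.3.2; the program that counted reads, its strand setting and its annotation are not stated in the sources used here. The deposited values are raw counts per gene. The table has 21643 rows, of which 2893 are zero in every library and 42 carry a repeated gene name. No pair of libraries agreed within sampling noise (the smallest chi-square per gene was 7.07), and no column was left out.

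Groups came from the treatment label. Counts of all 12 libraries were fitted by group with edgeR 4.0.16 in R 4.3.3 (TMM, filterByExpr, quasi-likelihood test, Benjamini-Hochberg, threshold 0.05), which shares one estimate of the spread, and PBS minus Control was the contrast. Alternatives included DESeq2 1.42.0, limma-voom (limma 3.58.1), other filters, batch, RNA integrity or a cerebellar index (18 granule cell genes) as a term, single batches and fits without 1 library. Principal components and list levels used log2 CPM with a prior count of 2. Coordinates are those of GENCODE vM21; 96 of 97 symbols were found once. The scripts were tested on simulated counts.

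Named genes were, in each direction, up to 10 called genes without overlap between groups with the largest fold change, and the 6 with the widest gap. These choices required a mean log2 CPM of at least 1 and left out predicted gene models and repeated names. Fixed genes of the study's question and called list members were also named. Satb1, Col6a2, Tcf7l2, Prl and Gh were chosen after their values were seen. Some genes counted in the lists are not reported here by name. Genes and lists (39, and 8 added after values were seen; 785 of 791 symbols matched) were chosen with earlier results of these data known, so lists are described by counts and medians without a test. The labels number no replicates, and libraries are numbered in order of accession. p-values measure the spread between mice. CPM ignores gene length, so levels are compared within a gene.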

Additional observations from a re-analysis of the deposited data

How the results depend on the processing

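With edgeR and all 6 libraries 756 genes were called, 62 higher and 694 lower in PBS. RLE size factors (768), a stricter filter (868) and thinning to the smallest total (783, added after seeing the data) kept the count within 1.5 times; without a filter 576 were called, 30 of them higher. Other settings moved it. DESeq2 called 3002 (922 higher, 2080 lower), a threshold of 0.1 gave 3271 (1088 and 2183), limma-voom 3 (0 and 3), batch as a term 2 (0 and 2) and RNA integrity as a term 137 (3 and 134). The Control and PBS libraries alone gave 0 in all (0 higher, 0 lower; 3601 at an unadjusted p below 0.05), the cerebellar index as a term 0 (336) and batch C 0 (230), whereas batch CH, 1 library of each group with the spread borrowed from the others, gave 1460 (750 higher) and the 5 libraries without Control 2, fitted alone and added after seeing the data, 7242 (3854 higher, 3388 lower). Leaving out 1 library gave 0 to 6721 calls (0 to 3476 higher, 0 to 3245 lower). The cause of these shifts was not tested. The 756 genes, chosen on these libraries, kept their direction in every fit that gave them a value except with the cerebellar index, where 751 did and the median size fell from 1.21 to 0.40. With that index the log2 fold change turned for Meis2 (0.10), Sdc1 (-0.10), Apoe (0.20), Trem2 (0.33), Gabra6 (-1.54), Adora2a (2.39), Tcf7l2 (-1.46), Cst7 (0.69), Itgax (0.92), Gfap (0.50), Snap25 (0.051), Kcna1 (-0.028), Kcna2 (-0.16), Sgk1 (0.10) and Fos (-1.09). Within batch C it turned for Apoe (0.27), Trem2 (0.55), Adora2a (2.42), Tcf7l2 (-2.47), Cst7 (0.81), Itgax (0.91), Gfap (0.64), Snap25 (0.0051), Kcna2 (-0.13), Sgk1 (0.073) and Fos (-0.67). Of these only Meis2 had been called. Tcf7l2 was at -0.40 with batch as a term. Gh was at -0.32 with limma-voom, and in batch CH Prl was at -0.90 and Gh at -4.01. Leaving out 1 library moved Tcf7l2 between -1.33 and 1.51, Snap25 between -0.055 and 0.046, Prl between -2.42 and 5.32 and Gh between -5.98 and 4.72. No paired analysis was possible because the labels give no replicate numbers that pair the mice. Depth limits genes such as Ntn5, Sec1 and Bglap3, which had 13, 10 and 8 counts over the PBS libraries, so their fold changes depend on the prior count. Treatment, batch and the regional makeup of the RNA cannot be told apart in these 6 mice.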

Other observations

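The pituitary hormone genes Prl and Gh were high in 1 PBS library. Prl, prolactin, stood at 44.8 CPM in PBS 3 and between 0 and 0.714 CPM in the other 5 libraries. Gh, growth hormone, stood at 24.4 CPM in PBS 3 and between 0 and 0.756 CPM in the others. Neither was called (log2 fold changes of 4.73 and 4.13, adjusted p 0.146 and 0.190 by edgeR). These 2 genes were chosen after their values were seen. The summed level of the hypothalamus and pituitary list was 110 CPM in PBS 3 and 12.4 to 34.6 CPM in the other libraries.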
